A study of Mus musculus with 15 samples.

Results

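The genes of vascular endothelial growth factor (VEGF) signalling were followed through bulk RNA-seq of cultured mouse bone marrow endothelial cells (BMECs), lung endothelial cells (ECs) and bone marrow stromal cells. They are the 4 ligand genes Vegfa, Vegfb, Vegfc and Pgf, the 3 receptor genes Flt1, Kdr and Flt4 and the 2 neuropilin genes Nrp1 and Nrp2, chosen by symbol, 9 of the 44674 genes in the count table. All 9 passed the filter on low counts that left 19401 genes tested. The 15 libraries fell into 8 conditions. P0 Emcn+ and P0 Emcn- BMECs were sorted from the first whole bone marrow culture (P0) by the presence or absence of endomucin (Emcn), a sialomucin of the endothelial surface. Lung ECs, which the study's text gives as Emcn-, came from cultured lung, and Emcn- BMECs came from passages P1, P2, P3 and P4. MSC were mesenchymal stromal cells of bone marrow. P4 had 1 library and each of the other 7 conditions had 2, so no spread can be given for P4.

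By the study's methods the ECs came from tamoxifen-treated Tie2-CreERT2;Rosa26-tdTomato mice, in which the promoter of Tek, an angiopoietin receptor gene, drives a recombinase that turns on a red reporter, and cells were sorted for that reporter and against the blood cell marker CD45. MSC came from Osx-Cre;Rosa26-tdTomato mice. The labels give the genotype of every sample as WT and no age. The study's methods and reporting describe adult mice some months old, with no age per library. A culture dish usually held the marrow of 1 mouse. Bone marrow EC cultures and, by the methods for other tissues, lung cultures were grown in EGM-2, a medium that itself contains added VEGF. MSC were grown in MesenCult medium, so medium and cell type cannot be told apart between MSC and the other cells. The labels also give 4 batches. Replicates 1 of both P0 groups and lung formed batch d and their replicates 2 batch a, replicates 1 of P1 to P3 and P4 formed batch b, and replicates 2 of P1 to P3 and both MSC libraries formed batch c. The P0 and lung libraries thus shared no batch with the passaged or MSC libraries, and for a comparison across that divide the batch and the condition cannot be told apart.

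VEGF ligands are secreted dimers that bind receptor tyrosine kinases on endothelium. VEGF-A binds the receptors encoded by Flt1 (VEGFR1) and Kdr (VEGFR2), placental growth factor (Pgf) and VEGF-B bind VEGFR1, and VEGF-C binds the receptor encoded by Flt4 (VEGFR3) and also VEGFR2. VEGFR2 carries most of the mitogenic and permeability signal, VEGFR1 binds VEGF-A tightly with weak kinase output and also exists as a soluble decoy, and VEGFR3 is known for lymphatic vessels, tip cells and the sinusoids of bone marrow. Neuropilins are co-receptors without kinase activity that also bind class 3 semaphorins.

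Levels are given as CPM, the share of a gene in all counts of its library, scaled alike in every library. Library totals ran from 9914620 to 39718807 counts. The lowest total belonged to P0 Emcn- replicate 2, and the next was 21688654. The smallest count of any of the 9 genes in any library was 13, for Flt4 in P0 Emcn- replicate 2. The labelled cell types were checked against 10 endothelial and 8 mesenchymal marker genes. The endothelial list includes Emcn, the antigen by which the P0 groups were sorted. The summed endothelial level was 13117 and 11566 CPM in P0 Emcn+ cells, against 125 to 908 CPM in the other 13 libraries. The summed mesenchymal level was 201 and 251 CPM in P0 Emcn+ and between 4137 and 16970 CPM in all other libraries. The libraries labelled as Emcn- ECs therefore went against their label in these markers and are called by their sort and passage. Cdh5, which encodes the junctional VE-cadherin, was at 6222 and 5118 CPM in P0 Emcn+, at 119 and 6.35 CPM in P0 Emcn-, at 39.5 and 171 CPM in lung, at 0.0564 to 2.33 CPM in the passaged libraries and at 7.86 and 156 CPM in MSC. Tek was at 168 and 125 CPM in P0 Emcn+, at 20.3 and 49.4 CPM in P0 Emcn- and at 6.13 and 7.05 CPM in lung. Emcn was at 631 and 798 CPM in P0 Emcn+ and at 12.7 and 2.52 CPM in P0 Emcn-. In lung Emcn was at 32.6 and 125 CPM, above both P0 Emcn- libraries. In bulk RNA a difference in the share of cells of a type and a difference in RNA per cell cannot be told apart.

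**Figure D1:**
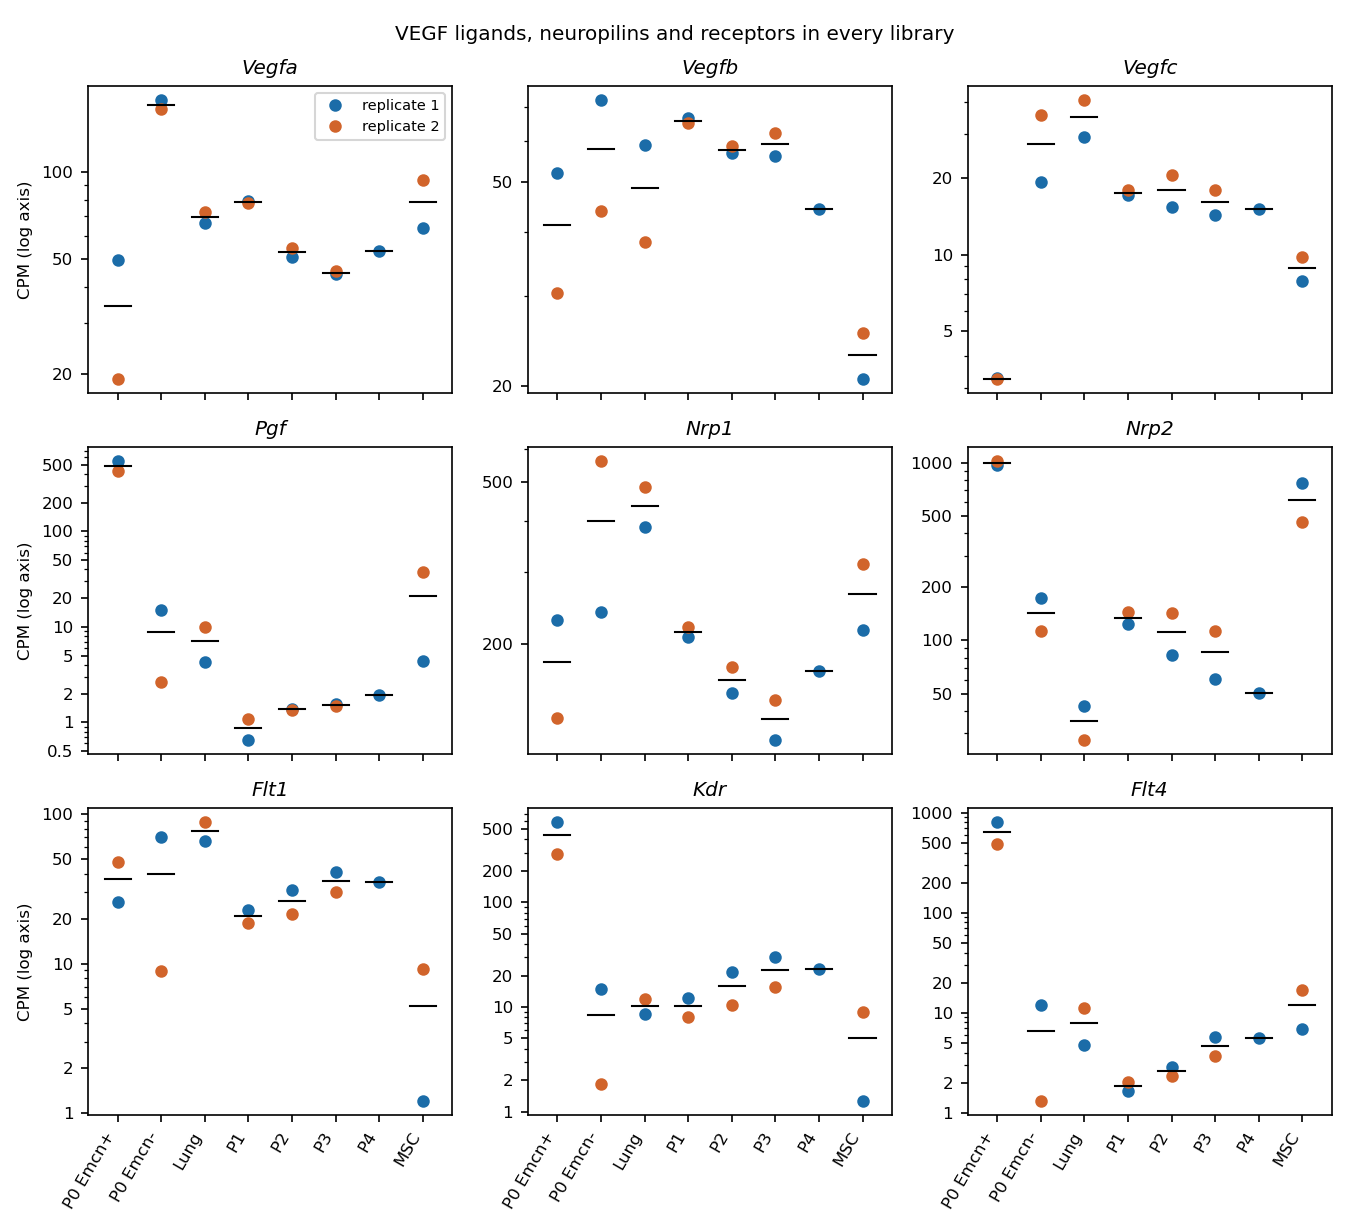
CPM of each of the 9 genes (y axis, logarithmic, a separate scale per gene) in the 8 conditions (x axis), with 1 point per library coloured by replicate number and a bar at the mean of each condition. Pgf, Kdr, Flt4 and Nrp2 are highest in both P0 Emcn+ libraries, where Vegfc stands at 3.26 and 3.25 CPM, below all other libraries.

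The first comparison asked how Emcn+ and Emcn- cells sorted from the same kind of culture differ in VEGF genes. In P0 Emcn+ BMECs Kdr, Flt4, Pgf and Nrp2 stood 7.12 to 92.4 times above their P0 Emcn- level, and Vegfa and Vegfc were 4.82 and 8.16 times lower. Hence 4 of the 9 genes were called higher and 2 lower, against 7.79% and 11.4% of all genes tested. To be called, a gene needed a Benjamini-Hochberg adjusted p under 0.05 in edgeR's quasi-likelihood test together with a log2 fold change beyond 1.5 in either direction. The median log2 fold change of the 9 genes was -0.09, beside -0.06 over all genes tested.

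Among the receptors, Kdr was at 587 and 288 CPM in replicates 1 and 2 of P0 Emcn+ and at 14.9 and 1.82 CPM in those of P0 Emcn-. The log2 fold change was 5.65 ± 1.06 (SE, n = 2 and 2, edgeR adjusted p = 0.00235). Each SE of a fold change rests on the fit of all 15 libraries, not on the spread of the compared libraries alone. The replicates of each group differed, but the groups did not overlap. Flt4 was at 807 and 483 CPM against 11.8 and 1.31 CPM, a log2 fold change of 6.53 ± 0.89 (SE, edgeR adjusted p = 0.000319), the largest of the 9 genes in this comparison. Flt1 behaved otherwise. It was at 26.0 and 48.0 CPM in P0 Emcn+ and at 70.4 and 8.88 CPM in P0 Emcn-, so the groups overlapped, and its log2 fold change of -0.09 ± 0.87 (SE, edgeR adjusted p = 0.981) was not called. Within batch d Flt1 was 1.44 lower on the log2 CPM scale in Emcn+ cells, and within batch a it was 2.43 higher.

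The promoters of Kdr and Flt1 are shown because both genes are receptors on chromosome 5 of which Kdr was called and Flt1 was not, and those of Vegfa and Vegfc because these are the ligands lower in P0 Emcn+. Each is the 250 bases before the RefSeq start (for Vegfa the first of 2 starts), 5′ to 3′ on the strand of the gene, with the core of ETS factor motifs (GGAA, or TTCC for the other strand) in capitals. ETS factors such as Erg and Fli1 are known regulators of endothelial genes.
Kdr: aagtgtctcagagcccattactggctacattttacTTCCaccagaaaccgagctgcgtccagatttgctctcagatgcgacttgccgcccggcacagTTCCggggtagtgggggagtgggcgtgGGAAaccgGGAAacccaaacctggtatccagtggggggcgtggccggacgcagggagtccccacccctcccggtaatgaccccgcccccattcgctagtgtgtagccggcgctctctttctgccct
Flt1: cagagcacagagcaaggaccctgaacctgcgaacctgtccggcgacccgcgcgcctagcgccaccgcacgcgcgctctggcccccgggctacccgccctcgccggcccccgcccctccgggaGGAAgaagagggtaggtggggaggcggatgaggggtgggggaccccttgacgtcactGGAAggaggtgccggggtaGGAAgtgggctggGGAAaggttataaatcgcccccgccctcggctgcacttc
Vegfa: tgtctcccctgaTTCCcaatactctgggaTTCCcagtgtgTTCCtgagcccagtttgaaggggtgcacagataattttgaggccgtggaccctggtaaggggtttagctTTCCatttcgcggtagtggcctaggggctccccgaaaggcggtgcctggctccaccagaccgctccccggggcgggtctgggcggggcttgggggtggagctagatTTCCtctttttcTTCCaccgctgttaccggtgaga
Vegfc: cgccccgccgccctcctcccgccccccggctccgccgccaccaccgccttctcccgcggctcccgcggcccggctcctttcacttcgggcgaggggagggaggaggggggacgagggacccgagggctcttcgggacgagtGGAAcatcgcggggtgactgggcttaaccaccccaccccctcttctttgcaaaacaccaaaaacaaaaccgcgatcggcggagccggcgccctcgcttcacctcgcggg
On GRCm38 these windows are chr5:75978456-75978705 (minus strand), chr5:147726012-147726261 (minus), chr17:46032378-46032627 (minus) and chr8:54077282-54077531 (plus). The genes themselves span chr5:75932827-75978458, chr5:147561604-147726011, chr17:46016993-46032369 and chr8:54077606-54187096 in GENCODE M21, so the windows lie at or just before their first annotated base, apart from 3 bases of the Kdr window in an exon. On both strands the ETS core occurs 4 times before Kdr, 4 times before Flt1, 6 times before Vegfa and 1 time before Vegfc. It is common: 93.4% of 32851 RefSeq promoter windows of this length hold it, with a median of 3 matches. The longer form CCGGAA, which contains the core, is in 12% of the windows and occurs before Kdr 1 time and before the other three not at all. The GC box GGGCGG, in 32.7% of the windows, occurs 2 times before Kdr, 3 times before Flt1 and 2 times before each of Vegfa and Vegfc. The TATA box TATAAA, in 12.4%, was found before Flt1 only among these 4. The window before the other RefSeq start of Vegfa, chr17:46025164-46025413, has 218 of its bases in exons and is not shown. It holds the ETS core 2 times and the hypoxia response core ACGTG, found in 16.6% of the windows, 1 time, where the window shown holds ACGTG 0 times. Windows of Pgf and Flt4 lie wholly, and that of Nrp2 in part, within exons of GENCODE M21 and are not shown. The ETS core occurs 0 times in both Pgf windows, 2 times in that of Flt4 and 1 time in that of Nrp2.

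Among the ligands, Pgf was the one gene higher in P0 Emcn+. It was at 546 and 425 CPM there and at 15.2 and 2.62 CPM in P0 Emcn- cells, which gave a log2 fold change of 5.72 ± 1.02 (SE, edgeR adjusted p = 0.00166). Vegfa was at 49.5 and 19.3 CPM against 177 and 164 CPM, a log2 fold change of -2.27 ± 0.35 (SE, edgeR adjusted p = 0.000728). Both P0 Emcn+ libraries lay below both P0 Emcn- libraries. Vegfc was at 3.26 and 3.25 CPM against 19.4 and 35.4 CPM, a log2 fold change of -3.03 ± 0.30 (SE, edgeR adjusted p = 4.67e-05), again without overlap. Vegfb was at 52.0 and 30.4 CPM against 72.3 and 43.9 CPM, and its groups overlapped (log2 fold change -0.46 ± 0.30 SE, edgeR adjusted p = 0.279). In both batches Vegfb was lower in Emcn+ cells, by 0.47 in batch d and 0.53 in batch a on the log2 CPM scale, which is less than the gap between the batches.

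Of the neuropilins, Nrp2, which pairs with VEGFR3 for VEGF-C, was at 968 and 1021 CPM in P0 Emcn+ and at 172 and 113 CPM in P0 Emcn-. Its log2 fold change was 2.83 ± 0.41 (SE, edgeR adjusted p = 0.000481). Nrp1, which pairs with VEGFR2 for VEGF-A, was at 229.6 and 132 CPM against 240.1 and 562 CPM. Its log2 fold change of -1.11 ± 0.37 (SE, edgeR adjusted p = 0.0427) lay under the fold change limit, so it was not called, but it passed that limit without P0 Emcn+ replicate 1 (-1.55, edgeR adjusted p = 0.0320) or P0 Emcn- replicate 1 (-1.58, edgeR adjusted p = 0.0039). Within batch d Nrp1 was level at -0.06 on the log2 CPM scale, and within batch a it was at -2.09.

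Kdr, Flt4 and Pgf varied together between the P0 Emcn- replicates. Replicate 1 was above replicate 2 in all 3, and in Flt1, and so was Cdh5 (119 and 6.35 CPM) and the summed endothelial level (347 and 162 CPM). Of the endothelial markers, Tek (20.3 and 49.4 CPM) and Eng (79.4 and 93.6 CPM) lay the other way. The part of these endothelial transcripts in the levels of the 4 genes was not tested. Macrophage markers, a list of 8 genes, summed to 589 CPM in both P0 Emcn+ libraries and to 208 and 255 CPM in P0 Emcn-, and their part was not tested either. All 10 endothelial markers, among them the sort antigen Emcn, were called higher and all 8 mesenchymal markers lower in P0 Emcn+. The 6 calls held under every alternative run, including each library left out in turn, and within each batch their sign was the same: Kdr was 5.30 and 7.31 higher, Flt4 6.09 and 8.52, Pgf 5.17 and 7.34 and Nrp2 2.49 and 3.17 on the log2 CPM scale in batches d and a.

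**Figure D2:**
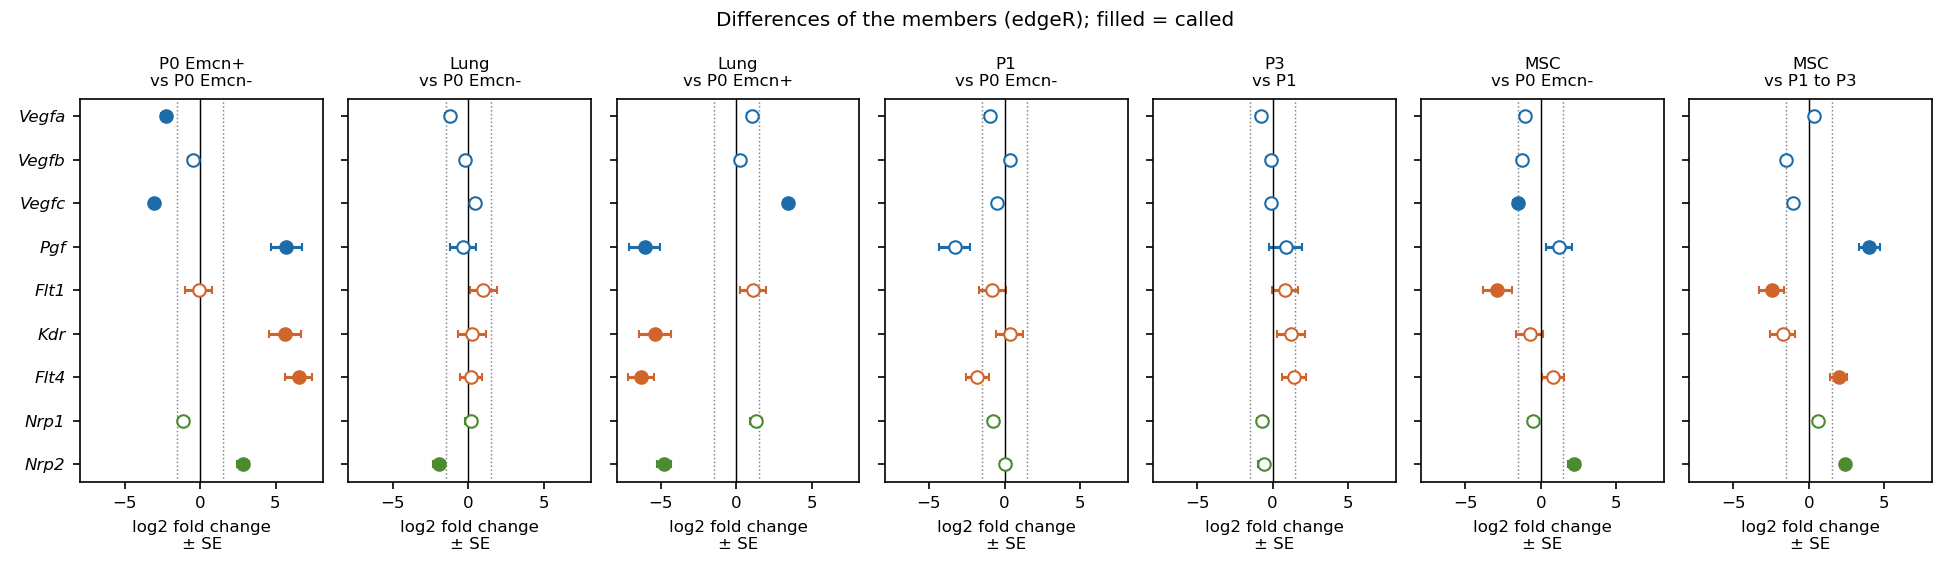
Log2 fold change (x axis, edgeR, with bars of ± 1 SE, hidden where smaller than the point) of the 9 genes (y axis) in 7 comparisons, 1 panel each, with ligands in blue, receptors in orange and neuropilins in green. Filled points were called and dotted lines mark the fold change limit of 1.5. The first and the third panels hold the widest differences, up to 6.53 for Flt4.

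To set genes beside each other, levels were divided by the length of the union of a gene's exons (CPM per kilobase). Pgf made up 80.6% and 85.5% of the summed ligand level per kilobase in the P0 Emcn+ libraries and 5.25% and 1.12% in P0 Emcn-. In P0 Emcn- the ligand level was mostly Vegfa, at 41.5% and 47.3%, and Vegfb, at 45.3% and 33.8%. The receptor level per kilobase in P0 Emcn+ was 59.4% and 62.3% Flt4, 39.4% and 33.9% Kdr and 1.17% and 3.78% Flt1. In P0 Emcn- Flt1 was the main part, at 62.8% and 64.6%, although the sum of the receptors was low there. Nrp2 was 77.7% and 86.4% of the neuropilin level in P0 Emcn+, and Nrp1 was 62.8% and 85.7% in P0 Emcn-. These shares have no test. They also depend on the length chosen, since Flt1 has 13504 bases of exon union but 6895 in its longest transcript, and Nrp1 has 9785 and 3645. With the longest transcript, Nrp2 was 44.4% in place of 54.9% of the neuropilin level in MSC replicate 2.

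**Figure D3:**
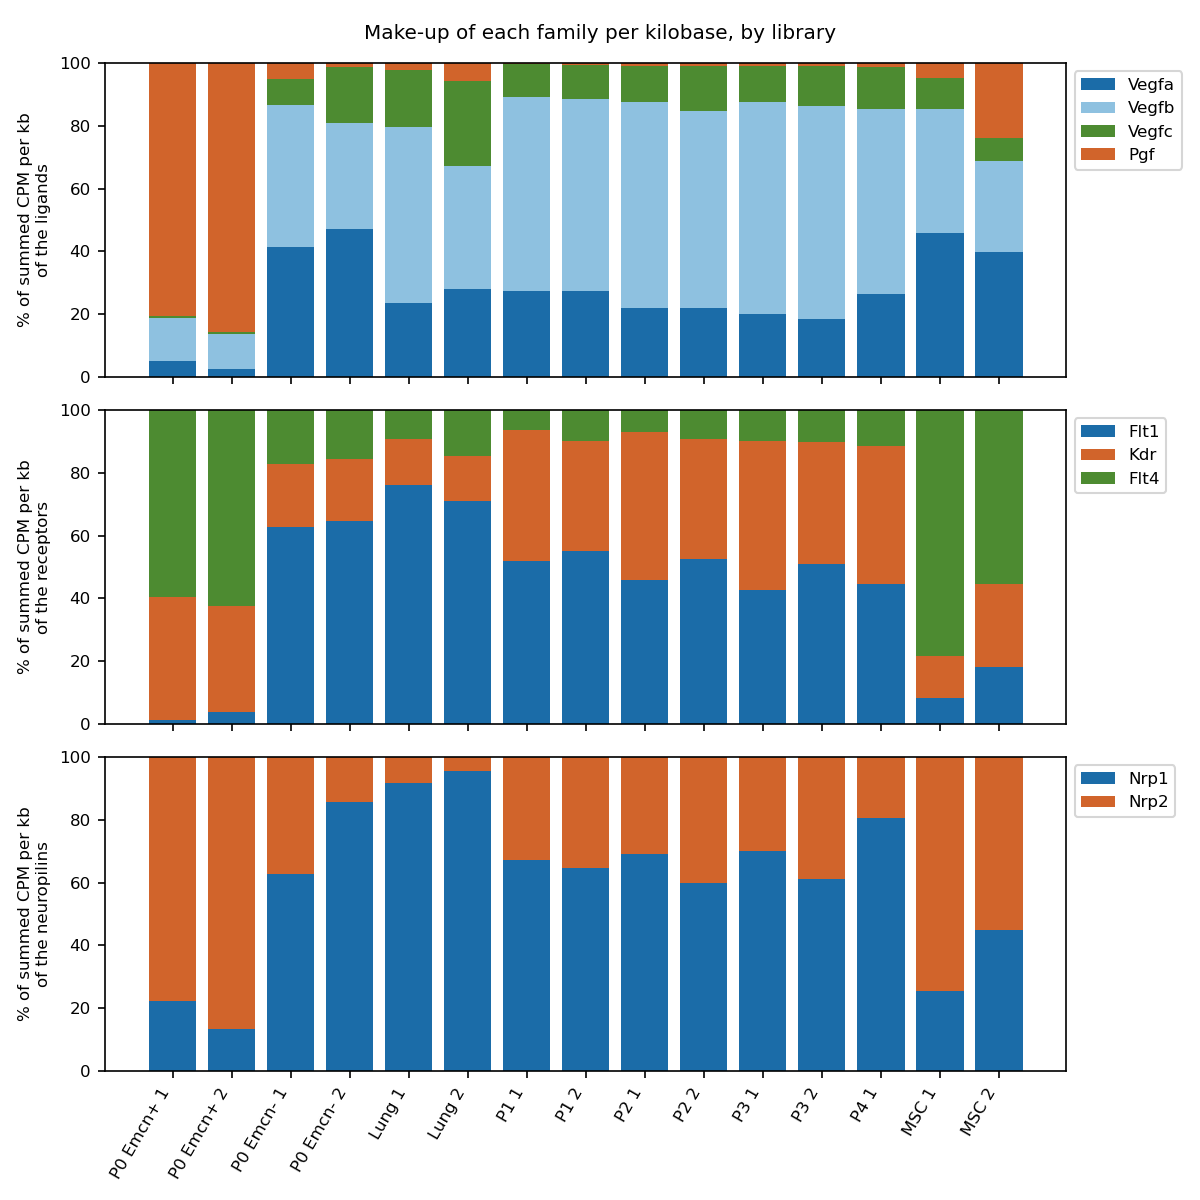
Percentage of the summed CPM per kilobase (y axis) that each gene holds among the ligands, receptors and neuropilins, in each of the 15 libraries (x axis, condition and replicate number). In both P0 Emcn+ libraries Pgf holds 80.6% and 85.5% of the ligands, and Flt1 holds 1.17% and 3.78% of the receptors, against 42.8% to 76.2% in P0 Emcn-, lung and passaged libraries.

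Within a library the ligand could also be set against its receptor. The log2 ratio of Vegfa to Kdr per kilobase was -2.49 and -2.82 in the P0 Emcn+ libraries and lay between 1.63 and 7.57 in the other 13. Kdr was thus above Vegfa per kilobase in P0 Emcn+ and below it in every other library. The log2 ratio of Vegfc to Flt4 was -6.20 and -5.47 in P0 Emcn+ and between 0.96 and 6.50 in the others. For Pgf and Flt1 the pattern was opposite, with 6.61 and 5.36 in P0 Emcn+, 4.08 and 4.25 in MSC, 0.0017 and 0.46 in P0 Emcn- and -2.90 to -0.94 in lung and passaged cells. The mean in P0 Emcn-, near 0, changed sign with the longest transcript as the length. The log2 ratio of Nrp1 to Nrp2 was below 0 in P0 Emcn+ (-1.80 and -2.67) and MSC (-1.55 and -0.28) and above 0 in every other library, but with the longest transcript as the length MSC replicate 2 was at 0.32. These ratios are of transcripts, carry no test and say nothing of protein.

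**Figure D4:**
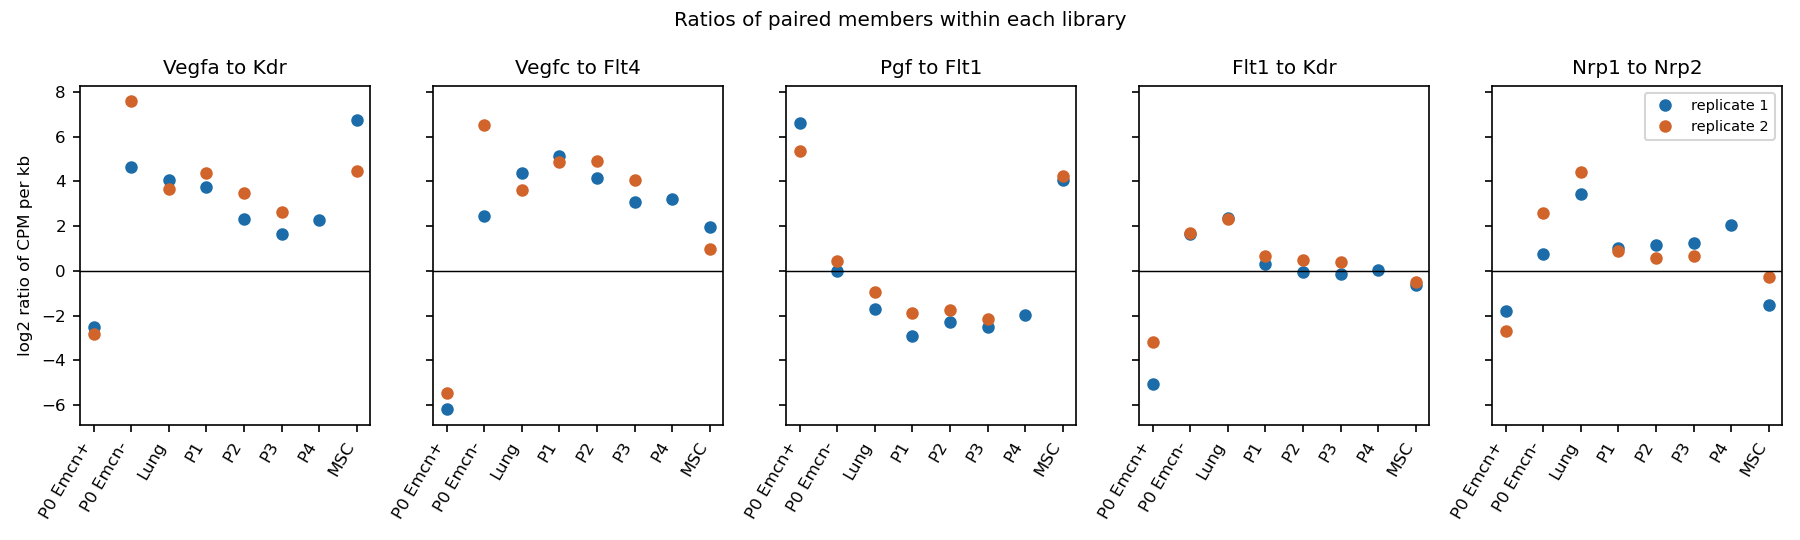
Log2 ratio of CPM per kilobase (y axis) of 5 pairs of genes, 1 panel each, in the 8 conditions (x axis), with 1 point per library coloured by replicate number and a line at 0. Only the 2 P0 Emcn+ libraries are below 0 for Vegfa to Kdr and for Vegfc to Flt4, among the 15 libraries.

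The cultured lung cells were compared with both P0 groups. Against P0 Emcn- cells, 0 of the 9 genes were called higher and 1 lower, against 2.13% and 1.7% of all genes. That gene was Nrp2, at 42.8 and 27.5 CPM in lung and 172 and 113 CPM in P0 Emcn- cells, giving a log2 fold change of -1.95 ± 0.40 (SE, edgeR adjusted p = 0.0205). Leaving out P0 Emcn- replicate 1 ended the call (-1.61, edgeR adjusted p = 0.0911), as did leaving out lung replicate 1 (-2.33, edgeR adjusted p = 0.0522) or lung replicate 2 (-1.66, edgeR adjusted p = 0.115), and so did a fit of only these groups (-1.95, edgeR adjusted p = 0.0816). The macrophage markers moved in the same direction as Nrp2, with 7 of 8 called lower and sums of 23.2 and 21.9 CPM in lung against 208 and 255 CPM, and their part in the Nrp2 level was not tested. Vegfa, at 66.6 and 72.6 CPM in lung, lay below both P0 Emcn- libraries without being called (log2 fold change -1.23 ± 0.34 SE, edgeR adjusted p = 0.0698). The 3 receptors overlapped between these groups, with Kdr at 8.50 and 11.99 CPM, Flt4 at 4.78 and 11.2 CPM and Flt1 at 65.9 and 88.5 CPM in lung. The higher library of each receptor was lung replicate 2, which also had the higher summed endothelial level (908 against 314 CPM). The part of that in these levels was not tested.

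Against P0 Emcn+ cells, lung cells were higher in 1 and lower in 4 of the 9 genes, against 12.6% and 8.48% of all genes. The comparison shares its P0 Emcn+ libraries with the first one. All 8 macrophage markers and 8 of the 10 endothelial markers were called lower and all 8 mesenchymal markers higher, and their part in the levels was not tested. Vegfc was higher, at 29.1 and 40.7 CPM in lung against 3.26 and 3.25 CPM (log2 fold change 3.45 ± 0.30 SE, edgeR adjusted p = 2.21e-05). Pgf was lower, at 4.34 and 9.91 CPM against 546 and 425 CPM (-6.08 ± 1.04 SE, edgeR adjusted p = 0.00121). Kdr, Flt4 and Nrp2 were lower, at log2 fold changes of -5.39, -6.33 and -4.78. Vegfa and Nrp1 were higher in both lung libraries than in both P0 Emcn+ libraries, at log2 fold changes of 1.04 and 1.30 that lay under the limit (edgeR adjusted p = 0.0344 and 0.0206), and without P0 Emcn+ replicate 1 both passed it (1.87 and 1.74). Per kilobase, Flt1 made up 76.2% and 70.9% of the receptor level in lung, and Nrp1 91.6% and 95.5% of the neuropilin level.

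The passaged Emcn- cells addressed how the P0 Emcn- profile holds in culture. The study passaged its cultures serially and the labels do not say whether the libraries of a batch came from 1 culture, so the 6 libraries of P1 to P3 may stand for 2 cultures, and p-values that take them as separate may then be too small. Between P1 and P0 Emcn-, edgeR called 0 of the 9 genes, against 5.77% of all genes called higher and 3.07% lower. At an unadjusted p under 0.05 there were 3, namely Vegfa, Pgf and Flt4, and the share of all genes at that limit was not counted. By adjusted p alone edgeR called 3387 of all genes and 0 of the 9. DESeq2 called 1945 of all genes and 1 of the 9. That was Pgf, at 0.654 and 1.08 CPM in P1 against 15.2 and 2.62 CPM in P0 Emcn-, with a log2 fold change of -3.30 ± 1.02 (SE, edgeR adjusted p = 0.0508) and of -3.20 by DESeq2 (adjusted p = 0.00999). Vegfa was at 79.2 and 77.9 CPM in P1, below both P0 Emcn- libraries (-0.96 ± 0.34 SE, edgeR adjusted p = 0.0742). Kdr was at 12.3 and 7.96 CPM, between the 14.9 and 1.82 CPM of the P0 Emcn- libraries. Without P0 Emcn- replicate 2, the library with the lowest total, Pgf (-4.01) and Flt4 (-2.54) were both called, and without P0 Emcn- replicate 1 the log2 fold change of Flt4 was 0.65.

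Between P3 and P1 the receptors lay higher and Vegfa lower, with no gene of the set called. EdgeR called 0 of the 9 genes, against 0.0773% of all genes higher and 0.144% lower. Those shares are 15 and 28 genes of 19401, and with the replicate block, which pairs libraries of a batch, 106 genes were called in place of 43. At an unadjusted p under 0.05 there was 1 of the 9 genes, Vegfa, and DESeq2 called none. Kdr was at 12.3 and 7.96 CPM in P1, 21.4 and 10.5 CPM in P2, 30.1 and 15.5 CPM in P3 and 23.3 CPM in the P4 library. In each batch Kdr was higher in P3 than in P1, by 1.29 in batch b and 0.96 in batch c on the log2 CPM scale. The fitted log2 fold change was 1.21 ± 0.90 (SE, edgeR adjusted p = 0.614).

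The other receptors had the same order. Flt4 was at 1.67 and 2.04 CPM in P1, 2.89 and 2.32 CPM in P2, 5.73 and 3.66 CPM in P3 and 5.53 CPM in P4 (P3 against P1 1.39 ± 0.79 SE, edgeR adjusted p = 0.491). Flt1 was at 22.8 and 18.7 CPM, 31.1 and 21.6 CPM, 40.7 and 30.3 CPM and 35.1 CPM (0.81 ± 0.88 SE, edgeR adjusted p = 0.749). For all 3 receptors both P3 libraries lay above both P1 libraries, as they did for 23% of all genes tested. Vegfa had the reverse order from P1 to P3, at 79.2 and 77.9 CPM in P1, 50.7 and 54.7 CPM in P2, 44.3 and 45.3 CPM in P3 and 53.1 CPM in P4 (-0.78 ± 0.34 SE, edgeR adjusted p = 0.353), as did Nrp1 (209 and 219.8 CPM in P1, 117 and 146 CPM in P3) and Nrp2 (124 and 145 CPM in P1, 60.5 and 112 CPM in P3). In total, 4 of the 9 genes were higher and 4 lower in both P3 libraries than in both P1 libraries, and Vegfc overlapped. Of all genes tested, 23% were higher and 29.4% lower in this sense. The log2 ratio of Vegfa to Kdr per kilobase was 3.76 and 4.37 in P1 and 1.63 and 2.62 in P3.

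The receptors of the passaged cells can be set beside the 10 endothelial markers in the same libraries, whose summed level was 130.4 and 128 CPM in P1 and 149.8 and 133 CPM in P3. Cdh5 was at 1.13 and 2.33 CPM in P1 and at 0.0564 and 0.185 CPM in P3, where the limit that a count of 0 allows (3 counts) is 0.0847 and 0.111 CPM. Cldn5, a tight junction gene, was at or below 0.43 CPM and Robo4 at or below 0.395 CPM in every passaged library, and Tie1 and Esam were at or below 0.446 and 0.538 CPM. Other markers of the list were not near 0 there. Eng, the endoglin gene, was at 72.4 to 124 CPM, Tek at 14.95 to 40.3 CPM and Pecam1 at 10.7 to 14.3 CPM, while Egfl7 was at 1.25 to 2.19 CPM and Emcn at 0.925 to 3.68 CPM. From P1 to P3, 7 of the 10 markers lay lower without overlap and 1, Eng, higher, with 0 called by edgeR and 2 at an unadjusted p under 0.05. The 8 macrophage markers summed to 72.8 and 232.6 CPM in P1 and to 17.7 and 14.4 CPM in P3, and 3 of them (Adgre1, Lyz2 and C1qa) were called lower. The part of either list in the levels of the 9 genes was not tested.

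**Figure D5:**
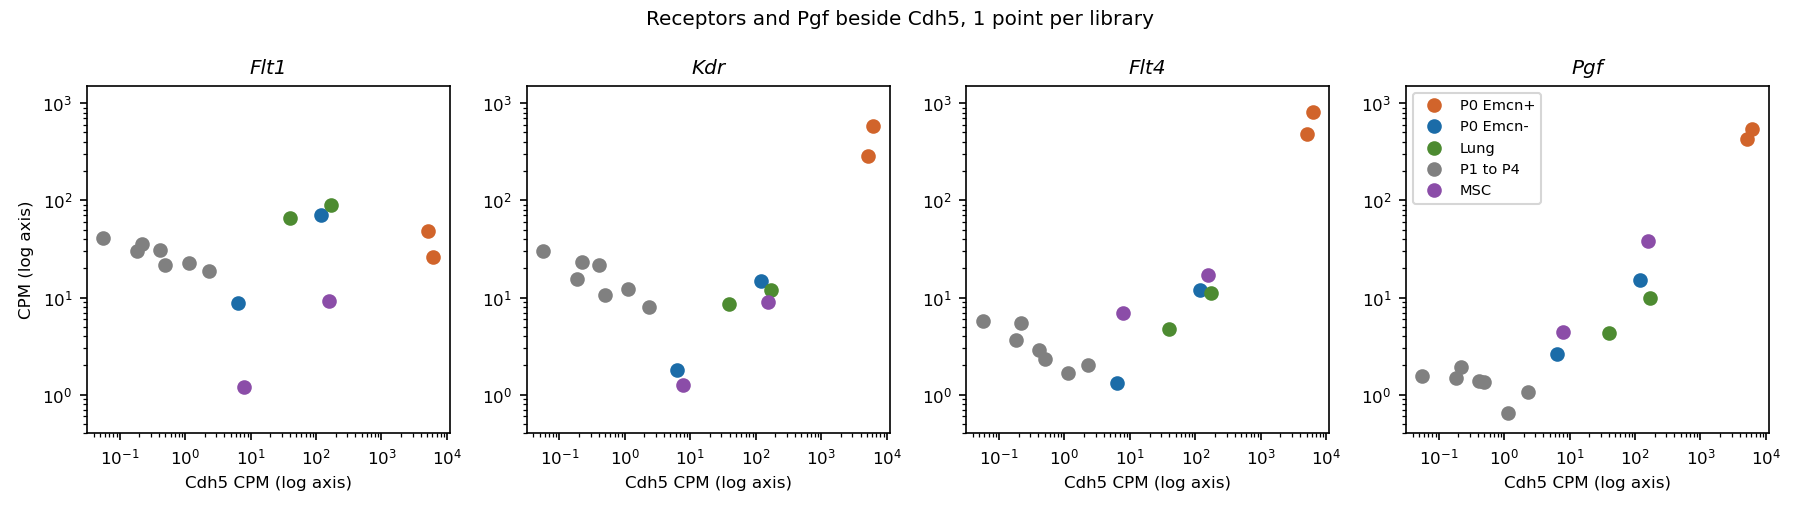
CPM of Flt1, Kdr, Flt4 and Pgf (y axis, logarithmic) beside CPM of Cdh5 (x axis, logarithmic), with 1 point per library coloured by condition. The 7 passaged libraries lie at 0.0564 to 2.33 CPM of Cdh5 with Flt1 at 18.7 to 40.7 CPM, and the 2 P0 Emcn+ libraries lie at the upper right in Kdr, Flt4 and Pgf.

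MSC were set against P0 Emcn- cells and against the passages. Against P0 Emcn-, 1 of the 9 genes was called higher and 2 lower, against 11.3% and 7.45% of all genes. Nrp2 was higher, at 766 and 462 CPM in MSC against 172 and 113 CPM (2.20 ± 0.40 SE, edgeR adjusted p = 0.00249). Vegfc was lower, at 7.86 and 9.83 CPM against 19.4 and 35.4 CPM (-1.53 ± 0.28 SE, edgeR adjusted p = 0.00261), close to the fold change limit. DESeq2 (-1.49, and -1.33 with ashr shrinkage) and RLE size factors (-1.49) placed it under that limit, as did leaving out P0 Emcn- replicate 2 (-1.07) or MSC replicate 1 (-1.40), and a fit of only these groups ended the call (-1.54, edgeR adjusted p = 0.051). Flt1 was called lower, at 1.21 and 9.25 CPM against 70.4 and 8.88 CPM (-2.88 ± 0.95 SE, edgeR adjusted p = 0.0385), although the groups overlapped. With the replicate block the Flt1 call was lost (-2.51, edgeR adjusted p = 0.104), as it was in a fit of only these groups (-2.86, edgeR adjusted p = 0.198), without P0 Emcn- replicate 1 its log2 fold change was -0.70, and without MSC replicate 1 it was -2.06 (edgeR adjusted p = 0.152). Of the macrophage markers 7 of 8 were called lower in MSC, with sums of 23.97 and 34.7 CPM against 208 and 255 CPM, and their part was not tested.

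Against P1 to P3, 3 of the 9 genes were called higher and 1 lower, against 8.42% and 5.81% of all genes. Nrp2 was higher (2.41 ± 0.28 SE, edgeR adjusted p = 0.000245), with both MSC libraries above all 6 passaged libraries, which lay between 60.5 and 145 CPM and may come from 2 cultures. Pgf was higher, at 4.38 and 37.9 CPM against 0.654 to 1.55 CPM (4.00 ± 0.67 SE, edgeR adjusted p = 0.00163), and Flt4 at 6.88 and 17.0 CPM against 1.67 to 5.73 CPM (1.97 ± 0.56 SE, edgeR adjusted p = 0.0221). Both rested on MSC replicate 2, without which Pgf was at 1.79 (edgeR adjusted p = 0.0841) and Flt4 at 1.21 (edgeR adjusted p = 0.288). The Flt4 call was also lost without P1 replicate 1, P2 replicate 2 or P3 replicate 2 (edgeR adjusted p = 0.0516, 0.0509 and 0.051). MSC replicate 2 also had more Cdh5 (156 against 7.86 CPM) and a higher summed endothelial level (492 against 175 CPM) than replicate 1. Against P1 to P3, 7 of the 10 endothelial markers were called higher in MSC and 1, Tek (5.47 and 5.51 CPM in MSC), lower. The part of these markers in the levels of Pgf and Flt4 was not tested.

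Flt1 was lower in MSC than in P1 to P3 (-2.48 ± 0.85 SE, edgeR adjusted p = 0.0477), with both MSC libraries below all 6 passaged ones. The call was lost with the replicate block (-2.23, edgeR adjusted p = 0.105) and on leaving out any 1 of the 6 passaged libraries (edgeR adjusted p = 0.0644 to 0.0784) or MSC replicate 1 (-1.66, edgeR adjusted p = 0.228). Kdr was at 1.26 and 8.89 CPM in MSC (-1.73 ± 0.82 SE, edgeR adjusted p = 0.135), and was called without MSC replicate 2 (-3.68, edgeR adjusted p = 0.0483). Vegfb lay just under the limit at -1.499 (edgeR adjusted p = 0.00248), at 20.7 and 25.4 CPM against 56.2 to 66.6 CPM without overlap, and passed it with the replicate block (-1.501, edgeR adjusted p = 0.000121). Within batch c, which holds both MSC libraries, Vegfb was 1.21 to 1.65 lower on the log2 CPM scale than in P1, P2 or P3.

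Over all conditions, the levels ordered as follows, by the means in CPM with SD and n. Pgf was highest in P0 Emcn+ (485 ± 86.0, SD, n = 2), then in MSC, P0 Emcn- and lung, whose neighbours overlapped, and then in P4, P3, P2 and P1, of which P1 was at 0.865 ± 0.298 (SD, n = 2). Flt4 was at 645 ± 229.7 (SD, n = 2) in P0 Emcn+ and at 17.0 CPM or less in every other library, where neighbours overlapped down to P3, and P3, P2 and P1 were apart. Kdr was at 438 ± 212 (SD, n = 2) in P0 Emcn+, and the 7 conditions after it, from P4 to MSC, overlapped with their neighbours. Flt1 had the order lung, P0 Emcn-, P0 Emcn+, P3, P4, P2, P1 and MSC, in which only P4 and P2, and P1 and MSC, did not overlap. Vegfc had the order lung, P0 Emcn-, P2, P1, P3, P4, MSC and P0 Emcn+, of which the last 3 were apart from each other. Vegfa was highest in P0 Emcn- (170.3 ± 8.94, SD, n = 2), apart from all other conditions, and lowest in P0 Emcn+, which overlapped with P3. Vegfb varied least, from 20.7 to 72.3 CPM, and only P1 and P3, and P0 Emcn+ and MSC, were apart as neighbours. Nrp1 was highest in lung and lowest in P3, and of its neighbours only P2 and P3 were apart. Nrp2 was highest in P0 Emcn+ (994 ± 37.9, SD, n = 2), then in MSC (614 ± 215, SD, n = 2), both apart from all others, and lowest in lung (35.1 ± 10.8, SD, n = 2).

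Across the 15 libraries Pgf and Flt4 had a Pearson correlation of log2 CPM of 0.96, Kdr and Flt4 of 0.81, and Vegfc was inversely related to Nrp2 (-0.88) and Flt4 (-0.85), while Flt1 and Flt4 were at 0.15. These are descriptions over libraries that share conditions and batches, and the 2 P0 Emcn+ libraries stand far out in several genes. By the same measure the 3 genes most like Pgf were Wscd1, Apln (0.99 each), which encodes apelin, and Vash1 (0.99), which encodes the angiogenesis inhibitor vasohibin. Among those most like Kdr were Parvb and Lyn (0.97 each), and most like Flt4 were Elk3, an ETS family factor, Ccdc88c and Trp53i11 (0.98 each). For Flt1 they were Desi1, Golm1 and Cndp2 (0.90 to 0.91), for Nrp1 Irf2bpl, Ripor3 and Atp1b2 (0.92 to 0.93), and for Nrp2 Rnf130 (0.94), 4931428F04Rik and Gm28230 (0.91 each). For Vegfa they were Il1rn, Fgfr1 and Zfp687 (0.92 to 0.93), for Vegfb Dcaf6, Atp6v1b2 and Neil2 (0.94 to 0.96), and for Vegfc Gm13307, Serping1 and Serpina3n (0.96 to 0.97).

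The other genes of the pathway, in lists by role, were read in the comparison of P0 Emcn+ with P0 Emcn-, in which 7.79% of all genes tested were called higher and 11.4% lower. Of 10 relatives and co-receptors, 4 were called higher and 4 lower, with Cdh5 higher (6222 and 5118 CPM against 119 and 6.35 CPM, log2 fold change 6.51 ± 1.60 SE) and Vegfd, a further ligand of VEGFR3, lower (3.01 and 9.74 CPM against 214 and 721 CPM, -6.17 ± 0.84 SE). Vegfd and Vegfc, the ligands of VEGFR3, were thus both lower where Flt4 was higher. In this comparison all 10 endothelial markers, among them the sort antigen Emcn, were called higher and all 8 mesenchymal markers lower. The part of these markers in the calls of the lists was not tested. Of 10 genes for processing VEGF-C and VEGF-D, of which 9 were tested, 1 was higher and 6 lower, among them the procollagen protease gene Adamts2 (11.9 and 13.5 CPM against 592 and 722 CPM, -5.66 ± 0.42 SE) and the proprotein convertase gene Pcsk5 (-5.00 ± 0.62 SE). The median log2 fold change of this list was -2.16, beside -0.06 over all genes tested.

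Of 32 genes of VEGFR2 signalling, 7 were called higher and 2 lower, beside 7.79% and 11.4% of all genes. Nos3, the endothelial nitric oxide synthase, was at 181 and 149 CPM against 6.55 and 0.605 CPM (5.41 ± 1.09 SE), and Sphk1, a sphingosine kinase, at 0.792 and 2.82 CPM against 51.9 and 37.0 CPM (-4.61 ± 0.59 SE). Of 11 genes of receptor handling, 3 were higher and 1 lower, with Ptprb, the vascular endothelial phosphatase VE-PTP, at 411 and 406 CPM against 10.1 and 0.504 CPM (6.15 ± 1.34 SE) and Efnb2, the ephrin-B2 gene, at 218 and 125 CPM against 20.1 and 16.1 CPM (3.27 ± 0.41 SE). Of 12 transcripts known to be induced by VEGF in endothelium, 4 were higher and 4 lower. Angpt2, a Tek ligand, was at 1769 and 2291 CPM against 28.8 and 6.56 CPM (6.84 ± 1.21 SE), whereas F3, tissue factor, was at 1.36 and 0.309 CPM against 141 and 62.3 CPM (-6.85 ± 0.90 SE). This list therefore did not move one way.

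Of 16 hypoxia response genes, which include targets of the factors that also act on Vegfa, 3 were called higher and 0 lower. The other 13 were not called, and the list had a median log2 fold change of 0.38, beside -0.06 over all genes tested. Vegfa was lower, and its relation to this list was not tested. Ndrg1 was at 466 and 563 CPM against 24.3 and 95.1 CPM (3.15 ± 0.57 SE) and Car9, a carbonic anhydrase, at 3.17 and 2.63 CPM against 0.201 and 0 CPM (4.34 ± 0.86 SE). Of 12 class 3 semaphorins and plexins, which signal through neuropilins, 6 were higher and 3 lower, with Sema3g at 326 and 155 CPM against 10.4 and 0.706 CPM (5.34 ± 0.85 SE) and Plxna4 at 117 and 85.2 CPM against 4.46 and 0.403 CPM (5.24 ± 0.99 SE). Of 12 regulators of endothelial receptor genes, 11 of them tested, 9 were higher and 1 lower. Erg was at 270.4 and 259 CPM against 6.17 and 0.504 CPM (6.16 ± 1.09 SE) and Sox7 at 143 and 149.8 CPM against 3.63 and 0.303 CPM (6.04 ± 1.23 SE). The median log2 fold change of the regulators was 4.75. The adjusted p of edgeR for the genes named from these lists lay between 7.94e-06 and 0.0103.

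In the other comparisons the same lists gave these counts, to be read beside the share of all genes called. Lung against P0 Emcn- (2.13% of all genes higher, 1.7% lower) had 1 semaphorin gene (Sema3d) and 2 regulators (Gata2 and Nr2f2) called higher and no other gene of the 8 lists. Lung against P0 Emcn+ (12.6% higher, 8.48% lower), which shares its P0 Emcn+ libraries with the comparison above, had 4 relatives and co-receptors, 3 genes of VEGFR2 signalling, 5 VEGF-induced transcripts, 6 processing genes, 5 semaphorins and plexins and 1 regulator called higher. Called lower there were 4 relatives and co-receptors, 8 genes of VEGFR2 signalling, 2 of receptor handling, 4 VEGF-induced transcripts, 1 processing gene, 6 hypoxia response genes, 5 semaphorins and plexins and 7 regulators. P1 against P0 Emcn- (5.77% higher, 3.07% lower) had 1 gene of VEGFR2 signalling and 1 semaphorin called higher, and 3 relatives and co-receptors, 1 gene of VEGFR2 signalling, 4 VEGF-induced transcripts (Egr3, Nr4a1, Dll4 and Dusp5), 2 hypoxia response genes and 1 semaphorin called lower. Between P3 and P1 (0.0773% higher, 0.144% lower) edgeR called 0 of the 113 genes tested in the 8 lists, and 13 had an unadjusted p under 0.05.

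MSC against P0 Emcn- (11.3% of all genes higher, 7.45% lower) had 1 relative or co-receptor, 1 gene each of VEGFR2 signalling, receptor handling, VEGF-induced transcripts and hypoxia response, and 3 semaphorins called higher. Called lower were 1 gene of VEGFR2 signalling, 3 processing genes, 2 hypoxia response genes and 1 plexin. Against P1 to P3 (8.42% higher, 5.81% lower), MSC had 4 relatives and co-receptors, 2 genes of VEGFR2 signalling, 1 of receptor handling, 6 of 12 VEGF-induced transcripts, 4 hypoxia response genes, 4 semaphorins and plexins and 7 of the 11 regulators tested called higher, and 2 genes of VEGFR2 signalling and 3 processing genes lower. The regulators called higher were Erg, Fli1, Tal1, Gata2, Sox7, Sox17 and Sox18, and MSC replicate 2, in which Cdh5 was at 156 CPM, was the MSC library with the higher endothelial level.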

How the data were processed

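Bulk RNA-seq of 15 libraries in 8 conditions was analysed, grouped by the sample labels. Using the nf-core RNASeq pipeline, the authors trimmed reads, aligned them with STAR to GRCm38 and quantified Ensembl transcripts with Salmon. They deposited counts per gene as whole numbers without normalization, and no strand setting was stated for them. The study's text gives Salmon estimates as their source, so reads shared by similar genes were split by estimate. The 9 genes and all gene lists were chosen with earlier results of these data known.

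In R 4.3.3, genes were filtered by filterByExpr of edgeR 4.0.16 (minimum count 10 and 15 in total), TMM factors (0.925 to 1.086) were applied, and all 15 libraries entered a single quasi-likelihood fit that had a coefficient for each condition. This left 19401 genes, 7 residual and 3.07 prior degrees of freedom. P-values were adjusted by Benjamini-Hochberg over all genes tested. Counts at an unadjusted p have no share over all genes beside them, since it was not counted. The SE of a log2 fold change is its absolute value divided by the square root of the F statistic of the quasi-likelihood test. Genes named from the lists are the 2 called genes with the largest absolute log2 fold change in P0 Emcn+ against P0 Emcn-, and likeness is Pearson's r of log2 TMM CPM with a prior count of 2. A gene that the likeness rule names is not reported here. Levels are CPM of total counts. The test was checked on simulated counts. Lengths, positions and exons come from GENCODE M21, which holds 44118 of the 44674 identifiers, and promoters from RefSeq for GRCm38.p6.

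The spread between replicates exceeded counting noise in each of the 7 conditions with 2 libraries (42.5 to 140.5 for chi-square over its degrees of freedom). By the study's reporting the replicates were separate cultures, and the labels mark libraries of the same number as sharing a batch, both among P0 and lung and among P1 to P3. Their deviations from group means correlated by 0.139 to 0.209 and by 0.354 to 0.451. For pairs of groups that were not in the same batches the values ran from -0.104 to 0.127. The replicate block adds 2 terms, and pairs no MSC library since both are in 1 batch. Further alternatives were DESeq2 1.42.0 with and without ashr 2.2.63, RLE factors, no filter, at least 50 counts in 2 libraries, only the groups compared, calls by adjusted p alone, and leaving out each library in turn, where the lone library of a group is assumed to vary like the others.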

Additional observations from a re-analysis of the deposited data

How the results depend on the processing

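Of the fold changes of the 9 genes under the alternatives, 659 kept direction and side of the threshold, 27 lost it, 18 gained it and 25 changed sign, none of them called. With no fold change limit the genes called were 7209 for lung against P0 Emcn+, 6853 for MSC against P0 Emcn-, 6206 for MSC against P1 to P3, 6609 for P0 Emcn+ against P0 Emcn- and 3387 for P1 against P0 Emcn-, and 5 of the 9 genes were called for MSC against P0 Emcn-. Fitting only the groups compared gave 145 genes for lung against P0 Emcn-, 2396 for MSC against P0 Emcn- and 968 for P1 against P0 Emcn-, and called 0 of the 9 genes in the first (2 at an unadjusted p under 0.05 in the edgeR fit of all groups, 1 by DESeq2) and 1 in the second. P3 against P1 had 43 genes, and 303 with DESeq2, 150 with ashr, 170 with no filter, 153 in a fit of only the groups compared and 106 with the replicate block. P1 against P0 Emcn- had 1 of the 9 genes, Pgf, with DESeq2, ashr, no filter or at least 50 counts. The cause of these changes was not tested.

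With each library left out in turn, genes called ranged from 406 to 675 for lung against P0 Emcn- (lowest without lung replicate 1, 455 without P0 Emcn- replicate 1), from 805 to 2196 for P1 against P0 Emcn- (lowest without P1 replicate 1, 930 without P1 replicate 2, 854 without P0 Emcn- replicate 1) and from 0 to 41 for P3 against P1 (0 without P1 replicate 2 or P3 replicate 1, 3 without P3 replicate 2). Of the 9 genes, 0 to 1 were called for lung against P0 Emcn-, 0 to 2 for P1 against P0 Emcn-, 1 to 3 for MSC against P0 Emcn- and 2 to 4 for MSC against P1 to P3. These log2 fold changes, of genes not called with all libraries, changed sign: Flt1 from -0.90 to 2.11 in P0 Emcn+ against P0 Emcn-, Vegfb from -0.11 to 0.70 in lung against P0 Emcn+ and Vegfc from -0.22 to 0.032 in P3 against P1. In lung against P0 Emcn- they were Vegfb from -0.57 to 0.23, Pgf from -1.06 to 1.49, Nrp1 from -0.29 to 0.91, Kdr from -0.49 to 2.56 and Flt4 from -0.54 to 2.65. In P1 against P0 Emcn- they were Flt1 from -1.63 to 1.38, Flt4 from -2.54 to 0.65, Vegfb from -0.0015 to 0.74, Kdr from -0.41 to 2.64 and Nrp2 from -0.23 to 0.40, and in MSC against P0 Emcn- Kdr from -2.71 to 1.54, Nrp1 from -1.0016 to 0.20 and Pgf from -1.0007 to 3.07.

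The replicate block turned Flt1 in P0 Emcn+ against P0 Emcn- to 0.11, removed both Flt1 calls of MSC, added Vegfb for MSC against P1 to P3 and changed no other call of the 9 genes. The longest transcript as length gave -0.26 for the mean log2 ratio of Pgf to Flt1 in P0 Emcn-. Of the 3 genes most like each of the 9, Spearman's rho kept 2 for Nrp1, 1 each for Vegfa, Vegfb, Pgf, Flt1 and Kdr and 0 for Vegfc, Flt4 and Nrp2. With 2 libraries in a condition, and P0 Emcn- replicate 2 at 9914620 counts, small differences were not detectable.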
